A study of Mus musculus with 6 samples.

Results

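Of 32147 ATAC-seq peaks called in the crypts of all 6 mice, 1920 ranked lower in every Arid3a cKO list than in any WT list and are described here. ATAC-seq finds open chromatin by letting a transposase cut and tag accessible DNA, and a peak is a stretch with more tagged fragments than its surroundings. The members were chosen on column 7 of the peak lists, the fold of the summit over its local background: the 6 lists were merged on chromosomes 1 to 19 into 69957 consensus peaks, and each shared peak was given its within-list percentile of fold (0 lowest, 100 highest). A member had its highest cKO percentile below its lowest WT percentile and group means at least 5 points apart. By this rule 5.97% of the shared peaks ranked lower in cKO, and 1320 peaks, 4.11%, met the same rule in the other direction. Without the 5-point gap, 2279 peaks (7.09%) lay lower and 1505 (4.68%) lay higher. The excess of lower over higher peaks depended on the ranking: ranks among the shared peaks alone gave 1703 lower and 1754 higher, with 1026 of the members (53.4%) chosen again, −log10 q gave 426 and 1630, and the number of fragments at the summit gave 214 and 1483. Because the percentiles chose the members, they are given as a description with no test.

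The series held 3 WT and 3 cKO samples, numbered 1 to 3. The cKO animals were VillinCre-ERT2+/-; Arid3a fl/fl, in which a tamoxifen-dependent Cre recombinase under the Villin promoter deletes Arid3a in cells of the intestinal epithelium, while the labels give the controls as Arid3a WT. Animals of both genotypes received tamoxifen on 3 consecutive days, and crypts were taken 1 month after the first dose. The comparison asks where chromatin accessibility differs without Arid3a.

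The crypt is the lower compartment of the intestinal epithelium, where stem cells, dividing progenitors and Paneth cells reside. ARID3A, the product of Arid3a, is a DNA-binding regulator of transcription with a preference for A- and T-rich sites. Distal elements of such cells carry sites for factors such as HNF4, CDX and GATA, which maintain intestinal identity, and for AP-1, the dimers of Fos and Jun proteins that act downstream of growth and stress signals. Promoters of broadly expressed genes are often rich in CpG and carry GC boxes, bound by Sp and KLF proteins, and CCAAT boxes, bound by NFY.

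The sequences of the 6 members with the largest difference between group means are shown because they carry the widest separation of the genotypes. Each run covers the 121 bases centred on the summit, on the plus strand of GRCm38.p6. Capitals mark sites of AP-1 (TGACTCA), of GATA factors (AGATAA or else TGATAA), of NFY (CCAAT, then C or G, then A or G) and of ETS factors (CNGGAAGT) on either strand.
Sh3pxd2a, chr19:47315459-47315579: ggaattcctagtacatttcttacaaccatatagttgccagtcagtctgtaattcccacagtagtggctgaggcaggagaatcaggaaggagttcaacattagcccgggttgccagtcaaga
AC132455.2, chr17:84116365-84116485: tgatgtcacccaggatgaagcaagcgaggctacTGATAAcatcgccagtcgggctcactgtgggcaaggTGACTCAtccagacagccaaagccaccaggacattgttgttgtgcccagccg
Casz1, chr4:148791092-148791212: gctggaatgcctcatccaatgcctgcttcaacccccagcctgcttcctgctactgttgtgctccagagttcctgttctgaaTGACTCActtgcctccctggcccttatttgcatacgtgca
Tnni1, chr1:135788728-135788848: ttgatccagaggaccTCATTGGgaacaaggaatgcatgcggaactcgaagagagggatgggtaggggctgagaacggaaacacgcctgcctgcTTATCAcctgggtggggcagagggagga
Myl6b, chr10:128498764-128498884: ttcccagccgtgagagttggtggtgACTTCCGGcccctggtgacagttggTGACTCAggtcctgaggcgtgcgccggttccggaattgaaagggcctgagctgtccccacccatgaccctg
Ptma, chr1:86509531-86509651: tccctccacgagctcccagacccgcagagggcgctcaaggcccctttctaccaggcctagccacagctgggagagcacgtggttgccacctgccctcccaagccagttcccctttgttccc

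AP-1 was the motif whose share among distal members stood farthest above the shared peaks. Over all classes, 5 of the 20 members with the largest difference held it, beside 12.3% of all members and 8.19% of all shared peaks. The 20 were picked by that difference, so the count is a description and was not tested. The other members with the largest differences and an AP-1 site are shown in 41 bases centred on the site, which is in capitals.
Ppp1r15b, chr1:133118356-133118396: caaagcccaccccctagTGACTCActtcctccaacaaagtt
Gm47771, chr10:17654493-17654533: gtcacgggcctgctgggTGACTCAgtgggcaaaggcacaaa
Gm5475, chr15:100414256-100414296: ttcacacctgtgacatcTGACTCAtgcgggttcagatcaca
The centre of the site lay 12 bp from the summit in the AC132455.2 peak, 24 bp in the Casz1 peak and 7 bp in the Myl6b peak. It lay 20, 2 and 45 bp from the summit in the Ppp1r15b, Gm47771 and Gm5475 peaks. Over the 237 members with the site, the median distance was 40.0 bp, against 42.0 bp over the 2634 shared peaks with it.

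The lists held 39773 (WT 1), 49764 (WT 2) and 54010 (WT 3) peaks for controls and 57140 (cKO 1), 45557 (cKO 2) and 50444 (cKO 3) for knockouts. Read totals were not used here. The genome-wide coverage implied by the lists was 1.75 to 2.29 fragments per base. WT 1 had the shortest list and cKO 2 the lowest coverage. Promoter peaks were present in all 6 lists for 10 of 15 epithelial identity genes, 5 of 37 leukocyte genes and 2 of 23 mesenchymal and endothelial genes. Among epithelial cell type lists they were present for 17 of 31 absorptive and 5 of 17 goblet genes. They were present for 4 of 15 Paneth, 2 of 20 enteroendocrine and 3 of 13 tuft cell genes. The lack of a promoter peak thus does not by itself tell other cells from epithelium. No promoter peak was called for 28 of the leukocyte genes, Ptprc and Cd3e among them. Arid3a itself had 2 shared peaks and 0 members. Its promoter peak had percentiles of 64.9, 61.3 and 54.6 in WT and 46.7, 56.9 and 43.9 in cKO lists, which overlap, so the lists do not check the deletion. Nothing in the labels says whether same-numbered samples are related, and each sample is given as a separate replicate of its group.

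The members lay near the middle of the WT lists. The median percentile of the members reached 63.6, 63.9 and 62.6 in the WT lists 1 to 3, and 47.8, 52.8 and 46.9 in the cKO lists. All shared peaks had medians of 59.3, 67.2 and 69.6 in WT and 69.9, 64.3 and 66.6 in cKO lists. In fold, the members' medians were 6.35, 7.76 and 7.44 in WT and 6.05, 6.13 and 5.73 in cKO lists.

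**Figure D1:**
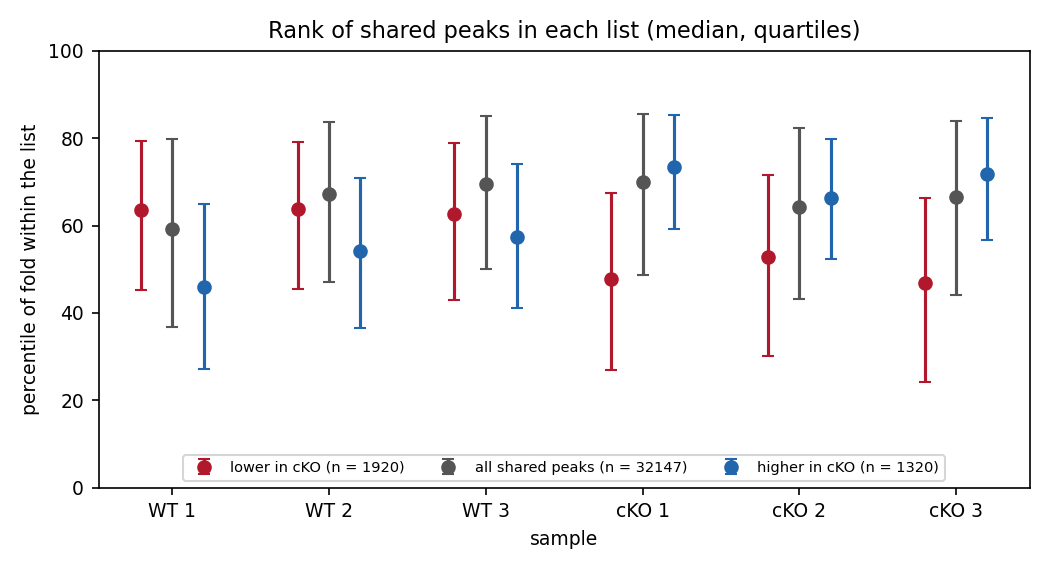
Median percentile of fold within each list (y axis, 0 to 100) by sample for members, all shared peaks and peaks ranking higher in cKO, with bars from the lower to the upper quartile over peaks. Members have medians of 62.6 to 63.9 in WT and 46.9 to 52.8 in cKO lists, and their quartiles overlap widely between genotypes because the rule compares each peak with itself.

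Most members were separated by little. The difference of means (cKO minus WT) had a median of −12.2 points and ran from −33.0 to −5.01. It was 5 to 10 points in 636 members, 10 to 15 in 693 and over 25 in 46. The gap between the lowest WT and the highest cKO percentile had a median of 2.82 points and was under 1 point in 375 members (19.5%). cKO 2 was the cKO list nearest to WT in 1163 members (60.6%). Just inside the 5-point threshold lay promoter peaks of Arl15 (91.9 in WT, 86.9 in cKO) and 4921531C22Rik (73.2 and 68.2) and a peak 28.5 kb from Rph3al (88.8 and 83.8). Just outside lay promoter peaks of Il1rap (97.5 and 92.5), Nfat5 (87.3 and 82.4) and Rps20 (95.1 and 90.1).

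The largest difference was at the promoter of Sh3pxd2a, which encodes the podosome scaffold TKS5. Its percentiles were 47.9, 55.8 and 41.7 in WT and 26.0, 5.92 and 14.6 in cKO lists, and the summit held 30, 42 and 38 fragments in WT and 30, 15 and 20 in cKO. All 3 cKO lists thus lay well below the lowest WT list. At Casz1, a zinc finger transcription factor gene, an intergenic peak 13.3 kb from the TSS had percentiles of 18.2, 63.6 and 39.2 in WT and 12.2, 3.83 and 6.75 in cKO. Here the WT lists were widely spread, and WT 1 lay close to cKO 1. The AC132455.2 peak, 19.5 kb from the start of this lincRNA, had 50.4, 66.9 and 62.3 in WT and 30.3, 28.9 and 22.1 in cKO.

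The tightest WT values among these 6 belonged to the promoter peak of Myl6b, a myosin light chain gene, at 71.1, 72.1 and 67.4. The cKO values of this peak were 36.1, 45.3 and 33.0. An intron peak of Tnni1, a muscle troponin gene, had 38.5, 34.9 and 47.6 in WT and 7.58, 2.03 and 14.9 in cKO lists. Ptma encodes prothymosin alpha, and an intergenic peak 17.1 kb from its TSS had 54.2, 69.6 and 46.1 in WT and 27.1, 23.0 and 24.8 in cKO. In each of the 3 peaks every cKO list lay well below every WT list.

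Other members of the 20 with the largest differences lay at genes of varied function. Eef2 encodes a translation elongation factor, and a peak in its intron, 0.103 kb from the nearest TSS, averaged 58.5 ± 4.81 in WT and 29.9 ± 12.5 in cKO lists (SD, n = 3 each). A peak 12.7 kb from Ppp1r15b, which encodes a subunit of the phosphatase that acts on eIF2alpha, averaged 52.9 ± 6.89 and 24.5 ± 13.7. Pdcd4 encodes an inhibitor of translation initiation, and a peak 1.21 kb from its TSS averaged 34.3 ± 6.41 and 6.64 ± 4.05. A coding exon peak of Afmid, an enzyme of tryptophan breakdown, averaged 44.1 ± 11.2 and 16.0 ± 11.1. An intron peak nearest to Hnf4aos, the antisense transcript of the Hnf4a locus, averaged 53.5 ± 9.94 and 25.6 ± 5.75. The remaining members of the 20 were nearest to 4930573C15Rik, Gm5294, Gm37191, Gm25852, BC021767, Gm49782, Gm45555, Gm48833 and Gm47771, mostly non-coding or pseudogenes, with differences of −31.6 to −27.0 points. Of the 20, 8 were in introns, 8 were intergenic and 2 were at promoters.

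**Figure D2:**
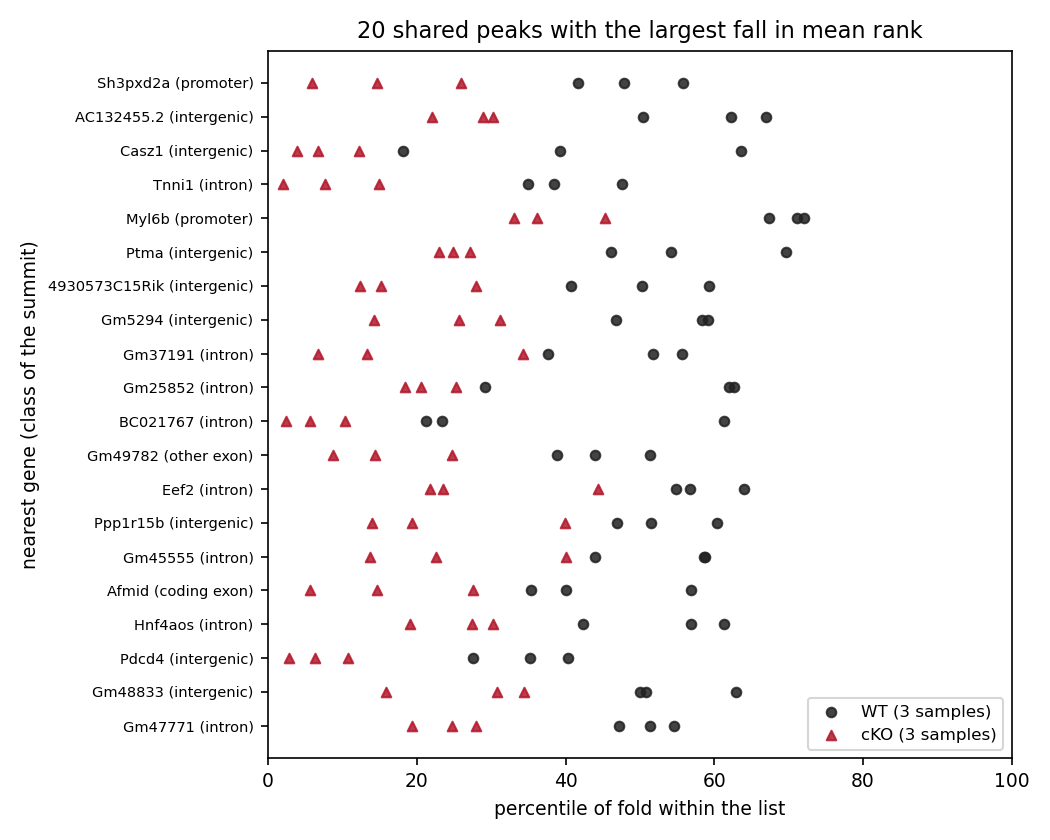
Percentile of fold in each list (x axis) for the 20 members with the largest difference of means, by nearest gene and class (y axis), with circles for the 3 WT and triangles for the 3 cKO samples. Every triangle lies left of every circle in a row, as the rule requires, and the WT circles of Casz1 and BC021767 are spread most widely (SD 22.7 and 22.5 points).

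Fold is a ratio, so a lower fold can come from fewer fragments at the summit or from a higher local background. The caller takes the background from the same library around the peak, so neighbouring open chromatin adds to it. The fold and p-value columns together gave the whole number of fragments at each summit (pileup) and the background, and each was expressed on a log2 scale relative to the median of its list over shared peaks. The cKO minus WT difference over the members had a median of −0.26 in log2 fold, −0.17 in log2 pileup and 0.10 in log2 background. By the means, −0.27 in fold divided into −0.19 in pileup and 0.08 in background, so that the pileup carried 71.0% of it. The relative pileup was lower in 1745 members (90.9%) and the relative background higher in 1511 (78.7%). Relative pileups did not overlap between genotypes in 594 members (30.9%), against 6.47% of all shared peaks. Pileup is part of the fold that chose the members, so these values describe the choice.

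The 20 members with the largest differences were mostly lower in pileup. Relative pileup was lower in 20 of 20, was the larger part of the difference in 18 and did not overlap between genotypes in 13. At Sh3pxd2a the log2 pileup differed by −1.12 and the log2 background by −0.53, so both were lower in cKO. At Ppp1r15b the pileup differed by −0.78 and the background by −0.29. At Hnf4aos the background (0.30) was the larger part and the pileup differed by −0.19.

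Members had a high local background. Background is part of the fold that chose the members, so the values below describe the choice. The local background of a peak, as a multiple of the genome-wide coverage of its list and averaged over the 6 lists, had a median of 6.06 in members, 3.36 in all shared peaks and 2.00 in the peaks ranking higher. Of shared peaks with a background below 1.5 times coverage, 0.444% ranked lower and 8.88% higher. Of those at 6 times coverage or more, 13.3% ranked lower and 0.0821% higher. The shift was seen in promoter and distal peaks alike: 0.425% to 11.6% of promoter peaks and 0.447% to 15.8% of distal peaks ranked lower from the lowest to the highest background. The libraries themselves differed in this measure. Over shared peaks its median ran at 2.29 (WT 1), 3.03 (WT 2) and 3.52 (WT 3) in controls and at 4.67 (cKO 1), 2.75 (cKO 2) and 3.88 (cKO 3) in knockouts, so cKO 1 and 3 lay above every WT list and cKO 2 below WT 2 and WT 3. The part of these differences between libraries in the choice of members was not tested.

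**Figure D3:**
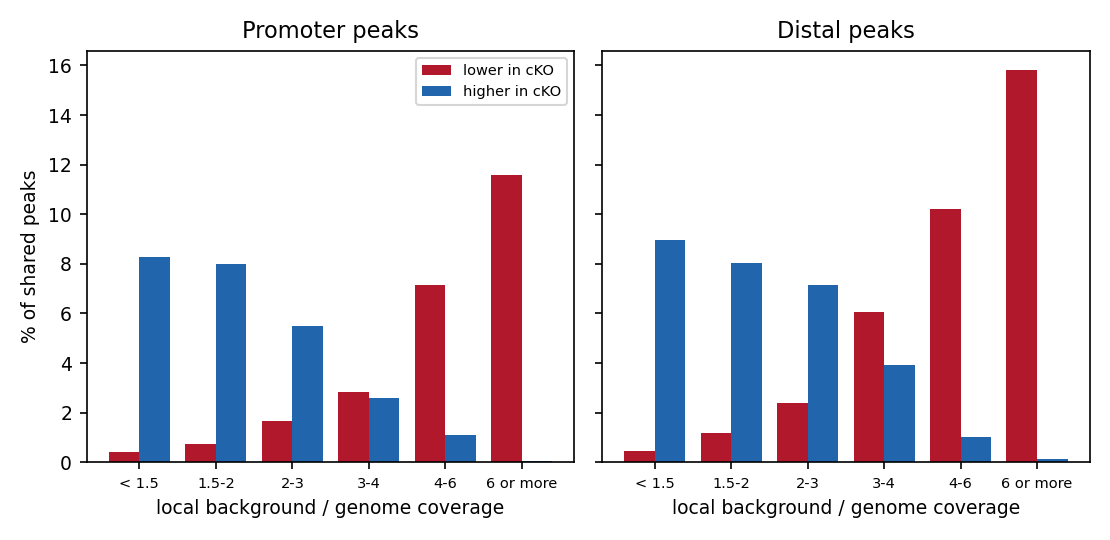
Percentage of shared peaks (y axis) ranking lower or higher in cKO by local background as a multiple of genome-wide coverage (x axis), for promoter and distal peaks. The share ranking lower reaches 11.6% of promoter and 15.8% of distal peaks in the bin of highest background, where the share ranking higher is 0.0458% and 0.136%.

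To see whether peaks chosen on some samples rank lower in others, the rule was applied to 4 samples. The direction was read in the WT and cKO sample left out, for each of the 9 such pairs. The sets chosen as lower held 3025 to 8479 peaks each, against 1920 members, so the shares below are not shares of the members. On average 60.5% of the peaks chosen as lower were also lower in the held-out cKO list, with 40.3% to 82.1% over pairs. This share was over 50% in 6 of the 9 pairs. The same share was 51.9% (37.3% to 64.0%) over all shared peaks and 40.5% over peaks chosen as higher. In 7 of the 9 pairs the chosen peaks were lower more often than all shared peaks. The exceptions held out cKO 2 with WT 2 (53.8% against 58.2%) or with WT 3 (45.0% against 62.8%). In those same 7 pairs the held-out cKO list had a higher median local background than the held-out WT list, and in the exceptions it had a lower one. The pairs reuse the same lists, and the local background is part of the fold that chose the peaks. Whether the direction and the local background are linked was not tested. The pairs share samples, so no test was made.

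**Figure D4:**
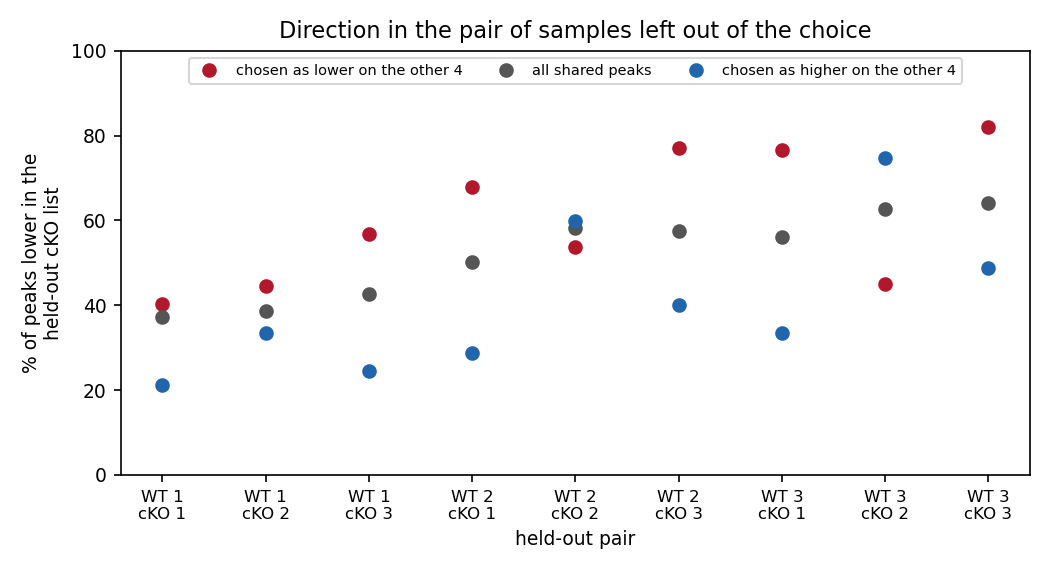
Percentage of peaks with a lower percentile in the held-out cKO than in the held-out WT list (y axis) for each held-out pair (x axis), for peaks chosen as lower or higher on the other 4 samples and for all shared peaks. The peaks chosen as lower lie above all shared peaks in 7 pairs and below them in the pairs of cKO 2 with WT 2 and WT 3.

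Promoters were the largest class of members under the ranking by fold. A summit from 1000 bp upstream to 100 bp downstream of a TSS was called a promoter peak, and 805 members were (41.9%, 95% Wilson interval 39.7% to 44.1%). The share was 36.6% over all shared peaks and 19.4% over peaks ranking higher. Among promoter peaks 6.84% ranked lower and 2.17% higher, against 5.30% and 5.76% of intergenic peaks. The remaining members were mainly in introns (566, 29.5%) and between genes (424, 22.1%). Members were few among the top-ranked peaks, where promoters are common: 1.35% of shared peaks with a mean percentile over 90 ranked lower, against 12.4% between 10 and 20. Weighted to the members' ranks, all shared peaks would hold 28.8% promoters. At a like local background, however, promoter peaks ranked lower less often than distal peaks in 6 of 6 bins, with 2.82% against 6.05% at 3 to 4 times coverage, 7.15% against 10.2% at 4 to 6 times and 11.6% against 15.8% at 6 times or more. The promoter share also lay below that of all shared peaks when peaks were ranked by −log10 q (24.4% against 36.5%), by pileup (22.0% against 36.5%), by pileup among shared peaks (27.6% against 36.6%) or by local background (22.3% against 36.2%), and with a gap of 10 points (33.6% against 36.6%), without WT 1 (32.7% against 33.6%) or without cKO 1 (36.4% against 36.6%).

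The A+T content around the summit (201 bp) averaged 41.4% ± 11.6 in members (SD over peaks), 43.6% in all shared peaks and 48.2% in peaks ranking higher. Within promoters it was 33.5%, 35.3% and 39.3% in the same order, and in distal peaks 47.1%, 48.4% and 50.4%. Members chosen by fold thus held less A+T than all shared peaks in both classes, while the peaks ranking lower by −log10 q or by pileup held more over all classes (45.0% against 43.6% in each). Members chosen by fold also held more CpG, 11.0 per window against 9.57 in all shared peaks and 6.14 in peaks ranking higher. Intervals on shares of peaks cover counting error only.

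Of 15 consensus motifs sought on both strands in this window, AP-1 (TGACTCA) was in 199 of 1115 distal members, 17.8% (15.7% to 20.2%). It was in 11.2% of all distal shared peaks, in 11.9% when these were weighted to the members' ranks and local background, and in 5.83% of distal peaks ranking higher. Seen the other way, 8.74% of distal peaks with the site ranked lower and 2.72% higher, against 5.06% and 5.54% of those without it. Among the 237 members with the site in all classes, 111 were in introns, 76 were intergenic and 38 at promoters. Their median percentiles were 55.9, 57.4 and 56.0 in WT and 39.2, 44.0 and 37.5 in cKO. The order of the distal shares, members above all shared peaks above peaks ranking higher, was seen in 16 of 16 alternatives, including those that ranked peaks by pileup alone. The alternatives use the same samples and many keep most members, so they are not independent. The ranking by local background kept 14 of the 1920 members (0.729%), and a lower background there raises the fold. A match to these letters does not show that AP-1 was bound.

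**Figure D5:**
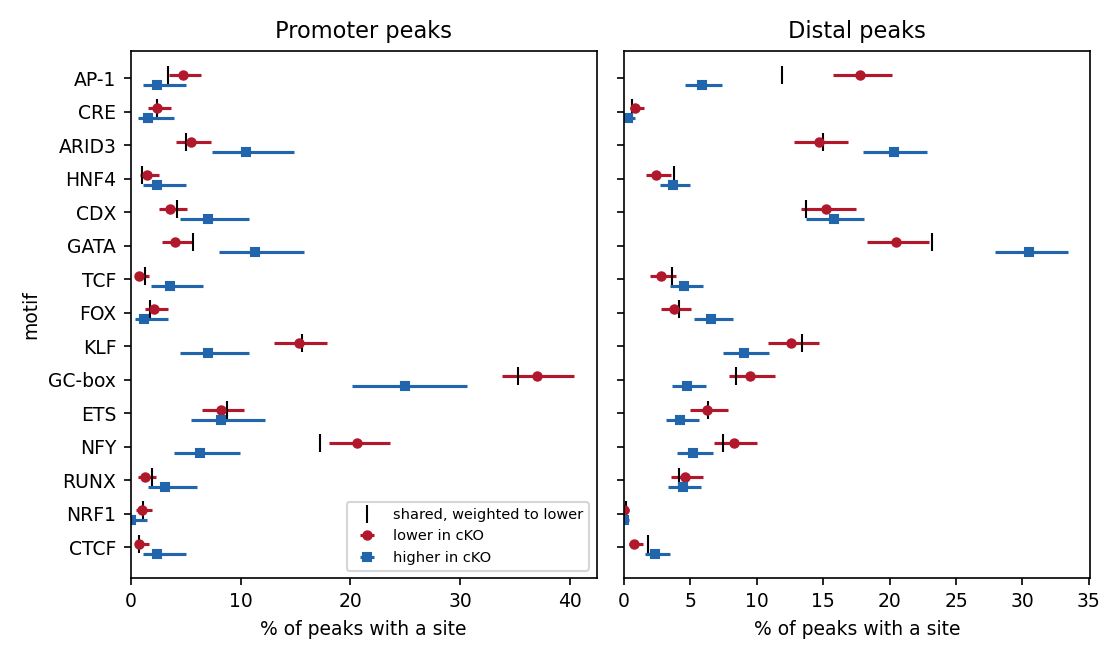
Percentage of promoter and distal peaks with each motif (x axis; motifs on the y axis) in members and in peaks ranking higher in cKO, with 95% Wilson intervals, and in all shared peaks weighted to the members' rank and local background (black ticks). Distal AP-1 (17.8% against 11.9%) stands apart from its tick, and GATA and ARID3 are more frequent in peaks ranking higher than in members. The ticks are not weighted to the peaks ranking higher.

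Motifs of intestinal identity differed by class and factor. GATA sites were in 20.5% of distal members (18.3% to 23.0%), 25.2% of all distal shared peaks and 30.5% of those ranking higher. HNF4 sites (CAAAGTCCA or CAAAGTTCA) were in 2.42% (1.67% to 3.50%), 3.77% and 3.67%, with 3.75% after weighting to rank and local background. At promoters the HNF4 site was in 12 members, 1.49% (0.855% to 2.59%). It was in 0.807% of all shared promoter peaks, 0.989% after the weighting and 2.34% of those ranking higher. Of promoter peaks with the site, 12.6% ranked lower and 6.32% higher, against 6.79% and 2.14% of those without it. CDX sites (TTTATNG) were in 15.2%, 15.1% and 15.8%, with 13.7% after the weighting, inside the members' interval (13.3% to 17.5%). ARID3 sites (ATCAAA or ATTAAA) were in 14.7% of distal members (12.8% to 16.9%), 16.9% of all and 20.3% of those ranking higher. Weighting to rank and local background gave 15.0% for ARID3, within the members' interval, and 23.2% for GATA, just above it. TCF sites (ATCAAAG), which contain one ARID3 form, were in 2.78%, 4.04% and 4.51%.

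Sites of CTCF, the insulator protein, were rare in members. They were in 8 distal members (0.717%, 0.364% to 1.41%), against 2.43% of all distal shared peaks, 1.82% after weighting to rank and local background and 2.35% of those ranking higher. At promoters, CCAAT boxes of NFY were in 20.6% of members, 16.2% of all shared promoter peaks, 17.2% after the weighting, which lies below the members' interval, and 6.25% of those ranking higher. GC boxes (CCCCGCC) were in 37.0%, 33.3%, 35.3% and 25.0%, and the weighted share lies inside the members' interval (33.8% to 40.4%). Weighted instead to the peaks ranking higher, shared promoter peaks held NFY boxes in 11.0% and GC boxes in 25.5%. Of the remaining motifs, ETS, RUNX (TGTGGTT), KLF (CCACNCCC), FOX (TGTTTAC), CRE (TGACGTCA) and NRF1 had weighted shares inside the members' intervals in both classes.

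Genes near members were many and mostly held 1 each. A TSS lay within 50 kb of 1885 members, at 1713 genes, of which 150 held at least 2 and 21 at least 3. Trim2, a ubiquitin ligase gene, held 4 of its 11 shared peaks. Its promoter member had 32.8, 35.4 and 34.3 in WT and 12.5, 10.1 and 1.36 in cKO lists, and its intron members differed by −24.5, −17.5 and −11.1 points. Mast4, a kinase gene, held 3 of 4 shared peaks, with differences of −17.1, −9.10 and −6.06. Neurl1b, whose product ubiquitinates Notch ligands, held 3 of 4 with −17.9, −11.8 and −7.71. Xpnpep1, an aminopeptidase gene, held 3 of 4 with −12.6, −8.68 and −8.33. The peaks of Gm42458, a transcript with no assigned function, numbered 3 of 5. None of these 5 genes had a peak ranking higher.

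Neighbouring members were only slightly more frequent than neighbours of any shared peak. For members with the next shared peak within 10 kb, that peak was also a member in 114 of 995 (11.5%), against 9.17% for all shared peaks, and was in the higher set in 1.41% against 2.72%. Chromosomes held between 4.60% (chromosome 13) and 7.90% (chromosome 11). Of 415 windows of 5 Mb, the one with the most members spanned 115 to 120 Mb of chromosome 11, with 25 of 239 shared peaks (10.5%).

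Epithelial identity genes held the largest share of members among 13 gene lists. Of 73 shared peaks nearest to the 15 genes, 14 (19.2%) ranked lower and 0 higher, against 5.97% and 4.11% of all shared peaks. They lay at Cdh1 (E-cadherin), Epcam, the tight junction genes Cldn3 and Cldn7, the keratin gene Krt19 and the transcription factor genes Cdx2, Hnf4a and Gata4. Their 73 peaks had a median local background of 9.41 times coverage, and shared peaks of the same class, rank and local background ranked lower in 14.0%. Whether 19.2% differs from 14.0% was not tested. The median over the 73 was −0.15 in log2 fold, 0.01 in log2 pileup and 0.15 in log2 background, so the median difference lay in the background. Pileups did not overlap in 4 of the 14.

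Single members at these genes were of both kinds. The Cldn3 peak, 9.91 kb from its TSS, had 48.5, 50.7 and 50.3 in WT and 31.7, 25.9 and 11.7 in cKO lists, with a pileup difference of −0.48 and a background difference of −0.01. The Cldn7 peak 3.01 kb from its TSS had 39.0, 37.5 and 37.7 in WT and 16.6, 12.7 and 12.6 in cKO, with −0.30 in pileup. These peaks were lower in cKO in pileup relative to the median of each list. Their raw fragment counts at the summit overlapped between genotypes and were highest in cKO 1. The Gata4 promoter had 66.0, 60.1 and 55.9 in WT and 41.4, 50.7 and 28.8 in cKO, with 0.08 in pileup and 0.44 in background. The Hnf4a promoter had 53.4, 68.2 and 65.7 in WT and 40.4, 51.8 and 47.1 in cKO, with −0.01 in pileup and 0.30 in background. In both, the lower rank was carried by the background.

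Notch pathway genes held 8 members of 51 shared peaks (15.7%, and 9.74% at the same class, rank and background), with 1 peak higher. Over the 51 peaks the median difference was −0.03 in log2 pileup and 0.06 in log2 background, and pileups did not overlap in 3 of the 8 members. Whether 15.7% differs from 9.74% in so short a list was not tested. A peak 7.51 kb from Nrarp, a Notch target that feeds back on the pathway, had 41.1, 36.7 and 33.9 in WT and 6.45, 24.8 and 5.44 in cKO lists. A peak 4.01 kb from Hes1, the target that restrains secretory fate, had 57.6, 59.3 and 57.6 in WT and 39.9, 55.0 and 25.2 in cKO. cKO 2 lay nearest to WT there. An intron peak of the ligand gene Jag1 had 36.6, 21.9 and 33.0 in WT and 14.6, 10.7 and 11.4 in cKO. For these Nrarp, Hes1 and Jag1 peaks the log2 pileup differed by −0.35, −0.22 and −0.13 and the log2 background by 0.16, 0.08 and 0.19.

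Goblet cell genes held 7 of 45 (15.6%, and 8.48% at the same class, rank and background) with 2 higher. Over the 45 peaks the median difference was 0.04 in log2 pileup and 0.07 in log2 background, and pileups did not overlap in 1 of the 7 members. Whether 15.6% differs from 8.48% was not tested. The peak 1.18 kb from Atoh1, the regulator of secretory fate, had 70.1, 63.9 and 67.6 in WT and 51.3, 51.4 and 37.1 in cKO. An intron peak of Tmprss2, a membrane protease gene, differed by −21.7 points and the promoter of Creb3l4, a transcription factor gene, by −19.8. At Atoh1, Tmprss2 and Creb3l4 the log2 pileup differed by −0.25, −0.07 and −0.03 and the log2 background by 0.15, 0.31 and 0.30. The member whose pileups did not overlap was the Atoh1 peak. Paneth genes held 1 of 9, a peak 3.70 kb from Nupr1, with 2 higher and 6.83% lower at the same class, rank and background. Enteroendocrine genes held 0 of 10 with 0 higher and tuft cell genes 0 of 13 with 2 higher, where 3.63% and 4.11% of matched peaks ranked lower. These lists are too short for such counts to stand apart from the matched shares.

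Genes of AP-1 subunits held 4 of 30 (13.3%, and 13.5% at the same class, rank and background), with 0 higher. Their peaks had the highest median local background of any list, at 14.3 times coverage. The Fos promoter averaged 49.2 ± 1.95 in WT and 31.5 ± 14.3 in cKO lists (SD, n = 3 each), and cKO 2, at 47.4, lay just below the lowest WT list, at 48.0. Its log2 pileup differed by −0.04 and its log2 background by 0.26. The Fosl2 promoter had 36.3, 36.4 and 33.4 in WT and 21.4, 30.4 and 15.0 in cKO. Pileups overlapped between genotypes in all 4.

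Stem cell and Wnt genes held 8 of 92 (8.70%, and 9.36% at the same class, rank and background) with 1 higher. The promoter peak of Ephb2, a Wnt target that positions cells along the crypt, had 58.9, 42.1 and 42.0 in WT and 20.5, 36.8 and 23.7 in cKO lists. The peak 6.29 kb from Sox9, a progenitor and Paneth cell factor gene, had 41.3, 35.9 and 39.1 in WT and 17.9, 24.0 and 22.1 in cKO. At Axin2, a feedback inhibitor of Wnt signalling, an intron peak differed by −14.9 points. For these Ephb2, Sox9 and Axin2 peaks the log2 pileup differed by −0.25, −0.12 and −0.05 and the log2 background by 0.10, 0.16 and 0.20. Cell cycle genes held 4 of 54 (7.41%, and 7.68% at the same class, rank and background) with 0 higher, at E2f2 (−18.1), Aurkb (−14.4) and Ccnd1 (−13.2). At Aurkb the log2 pileup was higher by 0.28 and the log2 background by 0.50.

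TGF-beta and BMP genes held 8 of 73 (11.0%, and 11.0% at the same class, rank and background), with an intron peak of Smad1 (−18.1), an intron peak of Tgif1 (−17.8) and the promoter of Tgif2 (−16.5). In this order the log2 pileup differed by −0.16, 0.06 and −0.23 and the log2 background by 0.15, 0.36 and 0.09. Smad1 transmits BMP signals and the Tgif proteins repress TGF-beta targets. Absorptive cell genes held 6 of 91 (6.59%, and 9.10% at the same class, rank and background), led by an intron peak of Mgam, a brush border glucosidase, with 39.6, 43.2 and 44.2 in WT and 21.5, 18.8 and 27.1 in cKO. The log2 pileup of this Mgam peak differed by −0.11 and its log2 background by 0.22. Leukocyte genes held 1 of 20, near Trac, with 1 higher, and mesenchymal and endothelial genes 0 of 14, with 2 higher. Matched peaks ranked lower in 5.57% and 3.44%, and these counts do not stand apart from them. Some genes stand in more than one list, such as Cdx2 and Hnf4a, and their peaks are counted in each.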

How the data were processed

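ATAC-seq of crypts from 3 WT and 3 Arid3a cKO mice was run by the authors through nf-core/atacseq, with Trim Galore, BWA on GRCm38, removal of blacklisted regions and narrow peaks from MACS (MACS2 and bedtools in the submitters' processing notes), called per sample with no control library described. The deposited score is 10 times the −log10 q without decimals. The deposited fold enrichment is a ratio of summit to local background, and the deposited −log10 p and −log10 q values come from a Poisson model. No column was tested between samples.

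Lists on chromosomes 1 to 19 were merged at an overlap of 1 base. Other chromosomes were not used here. Each shared peak took the highest fold percentile per list and the summit with the highest percentile. Fold was read as (pileup + 1) / (background + 1), and a pileup whole within 0.05 was found for 100.0% of shared peaks in each list. Coverage of a library is its commonest background value. This step, the ranking by pileup among shared peaks and by local background, and the weighting of motif and gene list shares to local background were added after seeing the data. Weighted shares average all shared peaks within cells of class, rank and, where stated, local background. Sequence came from GRCm38.p6 and genes from GENCODE M21. Motifs were exact matches within 100 bp of the summit. The ranking and the pileup step were tested on simulated data. Versions were pandas 2.3.3, numpy 2.4.6, matplotlib 3.10.9 and scipy 1.17.1, on Python 3.11.15.

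Members, 13 gene lists and 15 motifs were chosen with earlier results of these data known. Named items were the 20 members with the largest difference, the 5 genes nearest to most members, up to 3 members per gene list, 6 members with AP-1, 3 peaks on each side of the threshold, the 5-Mb window with most members and Arid3a; Cdh1, Epcam, Krt19 and Cdx2 were named after their values were seen, as were Ptprc and Cd3e. Alternatives were other rankings, gaps, q limits, list lengths and leaving out each sample. No comparison of other divisions of the samples was made.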

Additional observations from a re-analysis of the deposited data

How the results depend on the processing

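Of 74 recomputed values of 5 results, 37 stayed within 1.5 times the count or within the counting or pair spread. The number of members was 1920. It was 426 when peaks were ranked by −log10 q, 214 by pileup over whole lists and 323 by local background, and 1598 by pileup among shared peaks, where 466 of the 1920 members (24.3%) were chosen again. Leaving out 1 sample gave 2323 to 6002: 4585 without WT 1, 2937 without WT 3, 2883 without cKO 1 and 6002 without cKO 2. With 1 sample left out, fewer lists have to be separated, so the rule is easier to meet. The peaks ranking higher rose too, from 1320 to between 1704 and 5239. The promoter share (41.9%) was 24.4%, 22.0%, 22.3% and 27.6% with ranking by −log10 q, pileup, local background and pileup among shared peaks, 46.4% and 33.6% with gaps of 2 and 10 points, 52.4% at a −log10 q of at least 5 and 32.7% to 51.3% without 1 sample. The A+T content (41.4%, and 43.6% in all shared peaks) was 45.0%, 45.0%, 43.5% and 43.5% under the same 4 rankings, above the shared peaks in the first pair, 40.6% and 43.2% with gaps of 2 and 10 points, 38.8% at a −log10 q of at least 5 and 39.9% to 43.3% without 1 sample. The AP-1 share over all classes (12.3%) was 17.8% by −log10 q and by pileup, 15.8% by pileup among shared peaks, 14.1% with a gap of 10 points, 10.6% at a −log10 q of at least 5 and 9.20% to 13.3% without 1 sample. The cause of these moves was not tested. The share lower in held-out pairs (60.5%) was 49.6% to 60.3%. No paired analysis was possible because no result comes from a test.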
